A study of Mus musculus with 5 samples.

Results

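The genes described here are 10 genes of the Sertoli cell program, Sox9, Sox8, Fgf9, Ptgds, Aard, Vnn1, Clu, Erbb4, Mro and Cst9, in newborn mouse ovaries that lack Lhx8. They were taken as every probe set with a single gene symbol equal to 1 of the 10 names, dim probe sets included, which gave 18 of the 45037 non-control probe sets and 10 of the 18193 genes with a single symbol. RNA was measured on 5 oligonucleotide arrays, 3 of Lhx8 null ovaries (replicates 1, 2 and 3) and 2 of wild type ovaries (replicates 2 and 3). Both groups were female, postnatal day 0.5, on a C57/BL6/129SVEV hybrid background. Each array carried biotin-labelled target from a pool of 50 ovaries of at least 25 animals, so a replicate was a pool and not an animal. The comparison asked which transcripts differ in the newborn ovary when this oocyte homeobox gene is missing. The sources used here do not give the kind of null allele or the cells that a null ovary still holds.

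Sertoli cells are the supporting cells of the testis, and granulosa cells are their counterpart in the ovary; both arise from a common precursor of the early gonad. In the XY gonad SRY switches on Sox9, SOX9 and the secreted factor FGF9 keep each other active, and prostaglandin D2, made by the synthase that Ptgds encodes, recruits further cells to the Sertoli fate. In the ovary WNT4, RSPO1 and FOXL2 act against this program, and in adult mice loss of Foxl2 turns granulosa cells towards a Sertoli-like state. Several of the 10 genes are also expressed outside Sertoli cells: Clu and Ptgds in many tissues, Fgf9 in epithelia and mesothelia, Sox9 in cartilage and ducts.

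The 10 genes did not move together. Fgf9 and Ptgds rose in Lhx8 null ovaries at both of their probe sets, by 1.84-fold to 3.48-fold. Vnn1, Aard and Cst9 fell at every probe set they have, to levels that wild type ovaries exceeded 2.36-fold to 2.99-fold. Clu fell at 1 of its 4 probe sets, and Sox9, Sox8, Erbb4 and Mro passed the test at none. In all, 4 of the 18 probe sets rose, 5 fell and 9 did not pass (two-sided limma test, adjusted p below 0.05 by Benjamini-Hochberg over all 45037 probe sets). Of all probe sets 21.0% passed, 10.7% as higher and 10.3% as lower, and of the 27022 probe sets outside the dimmest 40% the share was 31.5%, against 5.28% of the dim ones. The members' count of 9 in 18 lay above both shares, and since the 10 genes were chosen with earlier results of these data known, no test of it was made. Each gene by its brightest probe set, 2 of 10 rose and 3 fell, where 27.5% of all 18193 genes passed, 14.0% as higher and 13.5% as lower. The median log2 difference of the 18 probe sets was -0.48 and that of all probe sets 0.00.

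The promoters of 3 genes that changed are shown, because in them a reader can look for binding motifs of the factors that drive the Sertoli program. They are RefSeq windows of assembly GRCm38.p6 running from 250 bases before to 50 after 1 annotated start of each gene, written 5′ to 3′ along the gene. For Cst9 that start is the outermost end of the gene, while the windows of Fgf9 and Ptgds lie inside the gene's bounds given further on, at a start downstream of the outermost one. Capitals mark AACAAT and ACAAAG, which SOX factors bind, AAGGTCA, a motif of NR5A1, and AGATAA, a motif of GATA factors, each searched on both strands, with no overlap between matches here.
Fgf9 (chr14:58072436-58072735, plus strand): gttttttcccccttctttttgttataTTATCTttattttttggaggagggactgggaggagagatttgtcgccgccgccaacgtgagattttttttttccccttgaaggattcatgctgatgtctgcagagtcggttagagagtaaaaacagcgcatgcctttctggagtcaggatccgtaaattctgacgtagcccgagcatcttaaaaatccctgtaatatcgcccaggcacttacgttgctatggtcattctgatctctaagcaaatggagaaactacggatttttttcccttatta
Ptgds (chr2:25469700-25469999, minus strand): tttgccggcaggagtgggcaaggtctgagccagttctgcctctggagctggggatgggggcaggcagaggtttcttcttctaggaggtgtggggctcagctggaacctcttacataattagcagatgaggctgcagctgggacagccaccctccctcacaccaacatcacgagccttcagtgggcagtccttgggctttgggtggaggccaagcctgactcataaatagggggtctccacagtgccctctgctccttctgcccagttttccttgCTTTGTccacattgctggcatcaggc
Cst9 (chr2:148834897-148835196, plus strand): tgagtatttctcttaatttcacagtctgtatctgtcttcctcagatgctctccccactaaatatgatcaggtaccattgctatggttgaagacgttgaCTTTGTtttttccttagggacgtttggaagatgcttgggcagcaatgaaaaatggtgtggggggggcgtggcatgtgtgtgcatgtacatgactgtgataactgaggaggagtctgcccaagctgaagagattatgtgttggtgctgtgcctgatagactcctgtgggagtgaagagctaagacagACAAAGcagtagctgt

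In these windows Cst9 held ACAAAG at 2 places, starting at bases 99 and 285 of the 300. Ptgds held it at 1 place, base 275, and Fgf9 held only AGATAA, at base 27. Among all 32851 promoter windows 18.7% held ACAAAG, 11.2% AGATAA, 10.7% AACAAT and 4.72% AAGGTCA. These matches are letters in a window, and no binding was measured. Of the other members the table also held Erbb4, with AACAAT starting at base 178, and Sox8, with none of the 4 motifs. Vnn1, Aard, Clu, Sox9 and Mro were not analysed for motifs.

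Signals are array intensities as deposited, given in the order of replicates 1, 2 and 3 for Lhx8 null ovaries and of replicates 2 and 3 for wild type ovaries. Lhx8 itself read 332.6, 159 and 347.4 in Lhx8 null, against 6450.1 and 5223.1 in wild type ovaries, so every null array was far below both wild type arrays. Where the 1 Lhx8 probe set lies with respect to the change in the null allele was not analysed here. The fall sets the groups apart as labelled, and whether it reads the changed part of the gene is not known here. All 8 germ cell markers listed further on fell too, and the part of this in the Lhx8 signals was not tested. Before quantile normalization the arrays' medians on the log2(signal + 16) scale were 7.00 to 7.18 in null and 6.80 to 6.83 in wild type ovaries. After it, correlations across probe sets were 0.960 to 0.974 between null arrays, 0.970 between wild type arrays and 0.905 to 0.931 between groups, lowest for null replicate 1 within its group. The 3′-over-5′ signal ratio of control probe sets reports on RNA integrity. For Actb it was 1.48 to 1.69 on null and 1.39 to 1.43 on wild type arrays, with no overlap between the groups. For Gapdh it was 0.658 to 0.802 on null and 0.625 to 0.666 on wild type arrays, which overlap. The part of either ratio in the results was not tested. Over all probe sets 4816 were called higher and 4642 lower. Centring arrays on their medians gave 3396 higher and 6302 lower and put the median difference of all probe sets at -0.13, where the deposited scaling put it at 0.11. No member that passed changed direction under either scaling.

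Fgf9, the fibroblast growth factor that sustains Sox9 in the XY gonad, rose most. Its brighter probe set, 1438718_at, had signals of 512.1, 597.6 and 538.9 in Lhx8 null ovaries, against 112.6 and 151.5 in wild type ovaries. Every null array stood far above both wild type arrays, with means of 550 ± 43.7 (SD, n = 3) in null and 132 ± 27.5 (SD, n = 2) in wild type ovaries. The normalised level was 1.80 higher on the log2 scale (SE 0.20, 95% interval 1.33 to 2.27, limma adjusted p = 0.000764), a fold of 3.48. At the second probe set, 1420795_at, the signals were 353.7, 404.8 and 393.4 in null ovaries, against 158.7 and 137.8 in wild type ovaries. It gave a difference of 1.13 (SE 0.21, limma adjusted p = 0.00689), again without overlap between the groups. Without wild type replicate 3 the second probe set missed the threshold (limma adjusted p = 0.0639) while the first passed with every array left out in turn. The wild type signals of Fgf9 lay well above 14.5, the wild type median of Y-linked genes, which a female tissue lacks. That of replicate 2 at 1438718_at, 112.6, lay just below 112.8, the highest wild type Y-linked signal, from Sry. The other wild type signals of Fgf9 lay above it. The wild type signals were still low enough that the fold depends on the constant added before the logarithm. The brighter probe set gave log2 differences of 1.90 with 1 and 1.54 with 64 in place of 16. The gene lies on chromosome 14, from 58070671 to 58112854 in GRCm38.p6.

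Ptgds, the lipocalin-type prostaglandin D synthase gene, rose by a smaller amount. The probe set 1423859_a_at had signals of 2005.6, 1614.8 and 2628.1 in Lhx8 null ovaries, against 945.3 and 1290.1 in wild type ovaries. The lowest null array was above the higher wild type array, but the null arrays differed widely among themselves. The difference was 0.93 (SE 0.21, limma adjusted p = 0.0171). The probe set 1423860_at had 898.4, 982.7 and 811.9 in null ovaries, against 438.3 and 517.1 in wild type ovaries, and a difference of 0.88 (SE 0.16, limma adjusted p = 0.00608). These rises hang on few arrays. Without wild type replicate 2 neither probe set passed (adjusted p = 0.155 and 0.0613 in limma), and without wild type replicate 3 the first did not (adjusted p = 0.0523 in limma). Under median centring the first probe set stood at 0.63 and did not pass (limma adjusted p = 0.0766), and the second stood at 0.64 and passed. Ptgds lies on chromosome 2, from 25466709 to 25470110.

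**Figure D1:**
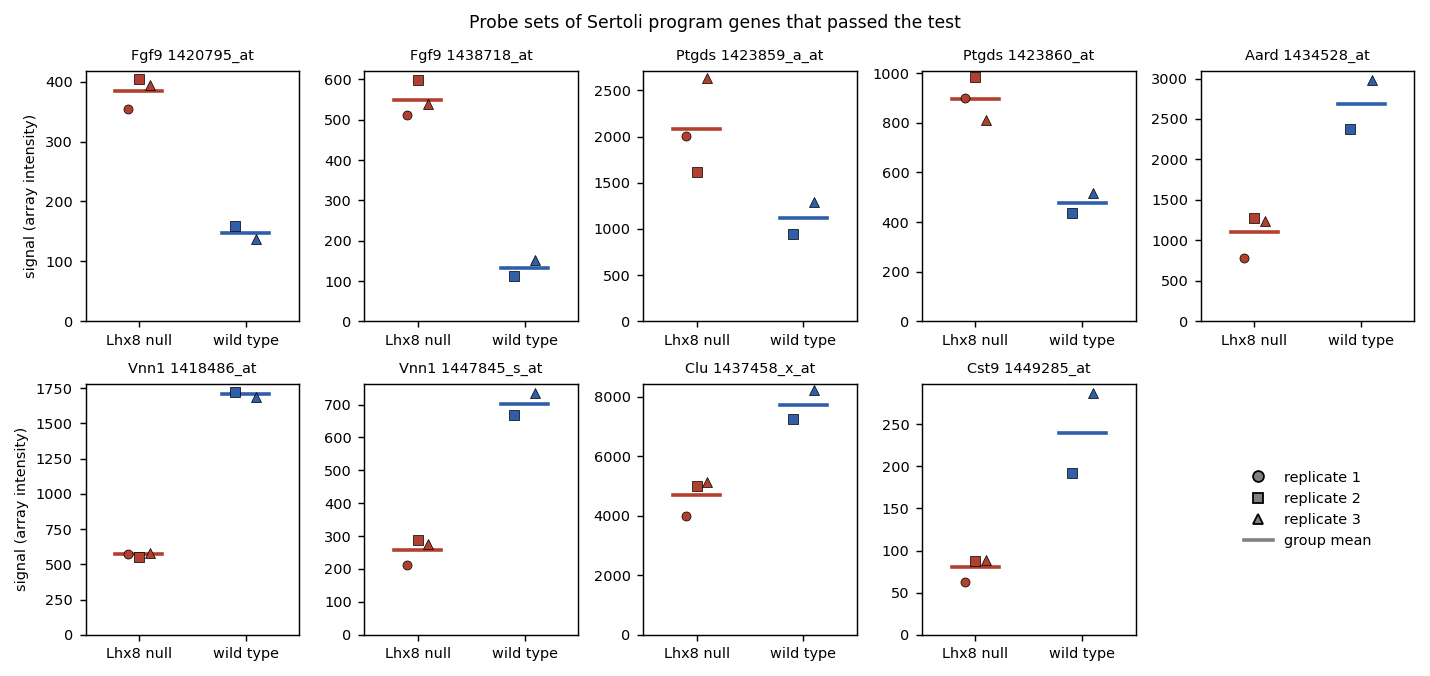
Signals (array intensity, linear axis from 0) of the 9 probe sets of Sertoli program genes that passed the test, in 3 Lhx8 null arrays on the left of each panel and 2 wild type arrays on the right, with symbols for the replicate number and a line at each group's mean. In Fgf9 and Ptgds every null array lies above the wild type arrays, and in Aard, Vnn1, Clu and Cst9 every null array lies below them.

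Vnn1 fell at both of its probe sets. It encodes vanin 1, a membrane-anchored pantetheinase that is far higher in fetal testis than in fetal ovary. Its probe set 1418486_at had signals of 572.4, 552.4 and 583.2 in Lhx8 null ovaries, against 1720.8 and 1688.5 in wild type ovaries. The arrays of each group lay close together and the groups were far apart. The difference was -1.52 (SE 0.13, 95% interval -1.81 to -1.23, limma adjusted p = 0.000189), which puts wild type 2.87-fold above null. The probe set 1447845_s_at had 211.2, 287.8 and 275.3 in null ovaries, against 668.9 and 736.4 in wild type ovaries, and a difference of -1.46 (SE 0.22, limma adjusted p = 0.00299). Without wild type replicate 3 this second one missed the threshold (limma adjusted p = 0.0524), and the first passed with each array left out in turn. Vnn1 lies on chromosome 10, from 23894688 to 23905344.

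Aard, a small gene named for its alanine- and arginine-rich domain and expressed in the early testis, also fell. Signals were 788.8, 1277.5 and 1245.1 in Lhx8 null ovaries, against 2374.3 and 2987.3 in wild type ovaries. Null replicate 1 was the lowest of the null arrays, and all 3 lay well below the wild type arrays. The difference was -1.24 (SE 0.23, limma adjusted p = 0.00647), with the wild type level 2.36-fold above the null level. The call was lost without wild type replicate 3 (limma adjusted p = 0.087) and without a trend in limma's variance model (adjusted p = 0.0514). Its 1 probe set leaves no second reading within the array. Aard lies on chromosome 15, from 52040107 to 52045722.

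Cst9, which encodes testatin, a cystatin-like protein of early Sertoli cells, had signals of 62.9, 87.4 and 89.2 in Lhx8 null ovaries, against 191.6 and 286.5 in wild type ovaries. The groups did not overlap. The null signals lay above 10.8, the median of Y-linked probe sets in null ovaries, and below their highest signal of 93.5, at Sry. The difference was -1.58 (SE 0.34, limma adjusted p = 0.0127), and -1.19 with 64 in place of 16 added before the logarithm. It was not called without wild type replicate 2 (limma adjusted p = 0.0555) or 3 (limma adjusted p = 0.144). Cst9 lies on chromosome 2, from 148835147 to 148838737. Its relative Cst12, a cystatin-like gene known from testis and epididymis, had signals of 1304.6, 1184 and 1220.6 in null ovaries, against 3379.7 and 4469.4 in wild type ovaries. Cst12 fell by 1.60 on the log2 scale (SE 0.14, limma adjusted p = 0.000242). Of the 4 measured relatives of CST9 and VNN1 it was the 1 that passed, and Cst3, Vnn3 and Cst11 had differences of -0.25, -0.74 and -0.62.

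Clu, the gene of the secreted chaperone clusterin and a product of mature Sertoli cells, was bright on all arrays and read by 4 probe sets that did not give 1 answer. At 1437458_x_at the signals were 4005.6, 4999.9 and 5117.9 in Lhx8 null ovaries, against 7253.4 and 8219.3 in wild type ovaries. This probe set separated the groups and fell by 0.80 on the log2 scale (SE 0.12, limma adjusted p = 0.00302), a call lost without a trend in the variance model (adjusted p = 0.0515 in limma). The brightest, 1437689_x_at, had 4454.3, 5845.3 and 5785.5 in null ovaries, against 7998.8 and 6476.8 in wild type ovaries. It had a difference of -0.47 (SE 0.14) that just missed the threshold (limma adjusted p = 0.0508) and passed with the dimmest 40% of probe sets left out (adjusted p = 0.0294 in limma), also when 1 probe set a gene was then tested (adjusted p = 0.0201 in limma), with probe sets of a gene averaged (adjusted p = 0.0235 in limma) and with 1 in place of 16 added before the logarithm (adjusted p = 0.0479 in limma). Under median centring 3 of the 4 probe sets passed as lower. The remaining probe sets, 1454849_x_at and 1418626_a_at, had differences of -0.43 and -0.26 and did not pass. Probe sets ending in _x_at can hold probes that match other transcripts as well. Whether Clu counts as lower thus differed between its probe sets and between these settings, and its 95% intervals run from -1.08 to 0.15 over the 4 probe sets.

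**Figure D2:**
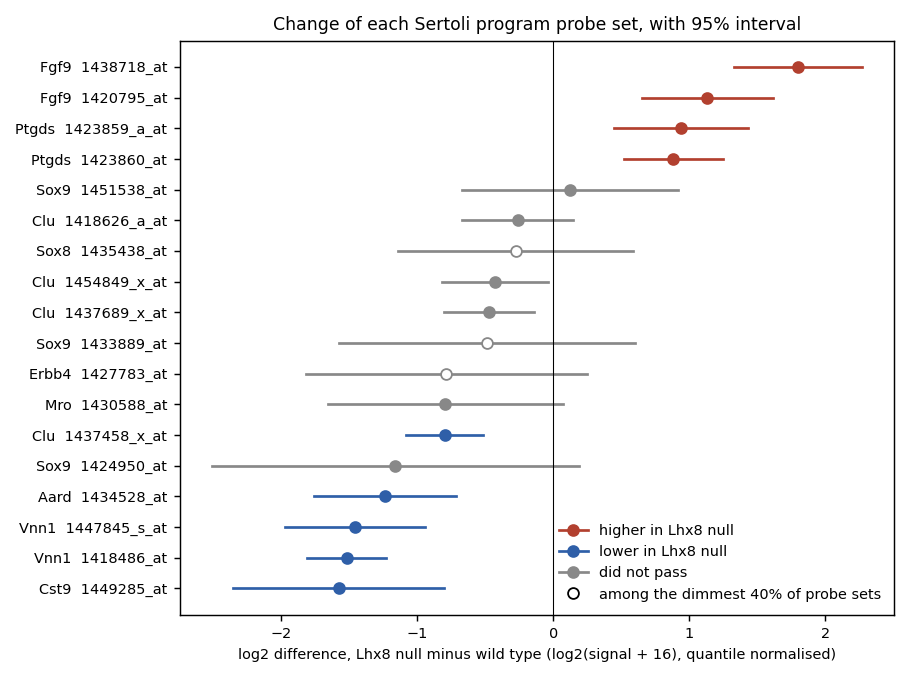
Log2 difference, Lhx8 null minus wild type, of all 18 probe sets of the 10 Sertoli program genes (points) with 95% intervals from limma (lines); red rose, blue fell, grey did not pass, and open points are among the dimmest 40% of probe sets. The 2 probe sets of Fgf9 and the 2 of Ptgds lie to the right of 0. Every probe set of Cst9, Vnn1, Aard and Clu lies to the left, and of Clu only 1437458_x_at passed. The intervals of Sox9, Sox8, Erbb4, Mro and Clu 1418626_a_at cross 0.

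The transcription factor genes at the head of the program had low signals. Y-linked genes, which a female tissue lacks, served as a rough gauge of the level of absent transcripts. Their 13 probe sets of 6 genes had signals from 0.7 to 93.5 with a median of 10.8 in Lhx8 null ovaries. In wild type ovaries they ran from 0.3 to 112.8 with a median of 14.5. Both highest signals came from Sry at 1450579_x_at. The other Y-linked probe sets reached 73.1 in null (Usp9y) and 48.4 in wild type ovaries (Uty). None was called in limma, and 1 had an unadjusted p under 0.05. Probe sets differ in their own background, so this range bounds no single probe set.

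Sox9, the SRY-box gene that directs Sertoli cell fate, had 3 probe sets. At 1451538_at its signals were 113.4, 72.4 and 115.4 in Lhx8 null ovaries, against 67.4 and 78.6 in wild type ovaries. At 1424950_at they were 105.7, 10.8 and 54.3 in null ovaries, against 106.4 and 92 in wild type ovaries. The null arrays spread over a wide range here, and as deposited they overlapped the wild type arrays at each of the 3 probe sets. The third, 1433889_at, had 57.5, 36.6 and 10.6 in null ovaries, against 34.6 and 44.9 in wild type ovaries. The log2 differences were 0.12, -1.16 and -0.49, with 95% intervals from -0.67 to 0.91, from -2.51 to 0.19 and from -1.58 to 0.60. Only null replicates 1 and 3 at 1451538_at exceeded 112.8, the highest Y-linked signal of either group. They and null replicate 1 at 1424950_at exceeded 73.1, the highest null signal of Y-linked probe sets other than Sry 1450579_x_at. Both wild type arrays at 1451538_at and at 1424950_at exceeded 48.4, the highest wild type signal of Y-linked probe sets other than Sry 1450579_x_at. At 1433889_at neither did. No change of Sox9 was detected at these low signals. The intervals hold a change in either direction, with upper ends of 0.91, 0.19 and 0.60 on the log2 scale. Sox9 lies on chromosome 11, from 112782210 to 112787757.

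Sox8, a close relative of Sox9 that backs it up in Sertoli cells, had signals of 23.5, 31.9 and 39.3 in Lhx8 null ovaries, against 36 and 30.2 in wild type ovaries. The groups overlapped, and the difference was -0.28 (95% interval -1.14 to 0.59). Erbb4, a receptor of neuregulins that takes part in Sertoli cell adhesion in the testis, had 3.9, 2.2 and 9.6 in null ovaries, against 5 and 37.9 in wild type ovaries. Its 1 probe set was among the dimmest 40%, like that of Sox8, and the difference was -0.79 (95% interval -1.82 to 0.25). Mro, whose transcript is male-specific in the early gonad, had 45.3, 60.9 and 60.3 in null ovaries, against 109.7 and 72.6 in wild type ovaries. The groups did not overlap, yet the difference of -0.80 did not pass (95% interval -1.66 to 0.07, limma adjusted p = 0.183). Among the 18 probe sets the normalised arrays of the groups did not overlap for 13, where this held for 49.5% of all probe sets; the 13 include Sox9 at 1424950_at, whose deposited signals overlap.

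**Figure D3:**
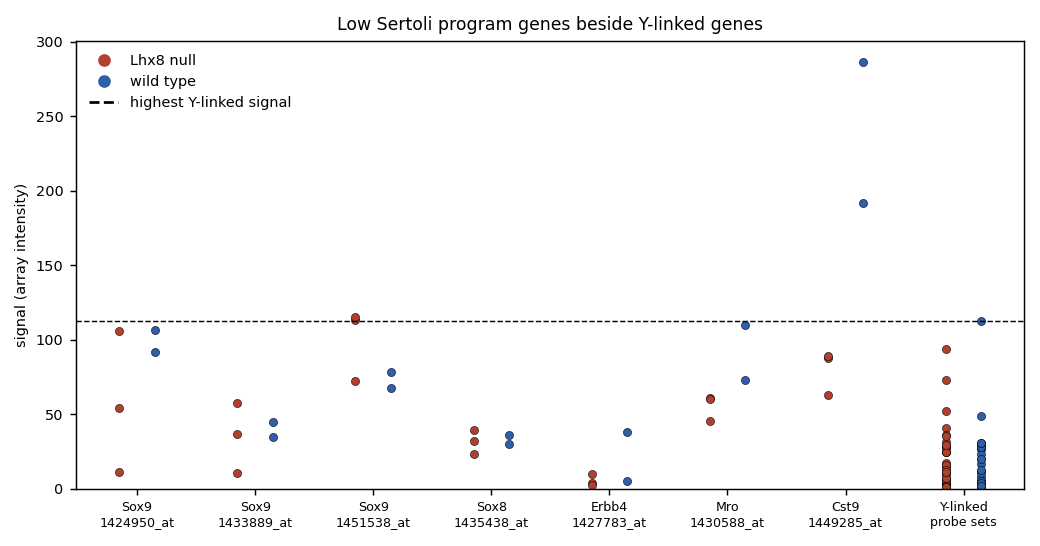
Signals (array intensity, linear axis from 0) of the low Sertoli program genes in Lhx8 null arrays (red, left of each pair) and wild type arrays (blue, right), beside those of 13 Y-linked probe sets in the same arrays. The dashed line is the highest Y-linked signal, 112.8, from Sry at 1450579_x_at. The wild type arrays of Cst9 stand above the line, while Sox8, Erbb4 and Mro stay below it in both groups and Sox9 passes it on 2 null arrays at 1 probe set.

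Other Sertoli cell genes were measured for 20 of the 25 names listed, and 8 fell, 1 rose and 11 did not pass, with a median log2 difference of -0.67 against -0.02 over all genes. Beside this and the list counts that follow, 14.0% of all genes were called higher and 13.5% lower. Tesc, which encodes the calcium-binding protein tescalcin of the early testis, had signals of 148, 100.2 and 78 in Lhx8 null ovaries, against 798.1 and 923.4 in wild type ovaries. It fell by 2.93 on the log2 scale (SE 0.26, limma adjusted p = 0.000235). Inhbb, an inhibin and activin subunit gene shared by Sertoli and granulosa cells, fell by 1.71, and the X-linked homeobox gene Rhox5 fell by 1.32. The call of Rhox5 was lost without wild type replicate 2 (limma adjusted p = 0.0606) or 3 (limma adjusted p = 0.0865). Dmrt1, a transcription factor of Sertoli cells and of germ cells, was the gene that rose, at 264.3, 293.7 and 387.8 in null ovaries, against 47.1 and 24.6 in wild type ovaries. Its difference was 2.50 (SE 0.34, limma adjusted p = 0.00166), but the wild type signals lay within the range of the Y-linked probe sets, so its size depends on the added constant and was 1.80 with 64 and 2.90 with 1. Amh, the hormone gene that defines fetal Sertoli cells, had signals of 4.6, 4.4 and 10.1 in null ovaries, against 8.4 and 4.9 in wild type ovaries. Dhh, the hedgehog ligand of Sertoli cells, had differences of -0.56 and 0.02 at its 2 probe sets and did not pass. The count of 8 lower genes was 5 without null replicate 2, 3 without wild type replicate 2 and 2 without wild type replicate 3.

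Of 15 regulators of the early gonad and of male sex determination, 5 fell, 1 rose and 9 did not pass, with a median of -0.35. Nr0b1, an orphan nuclear receptor gene, had signals of 148.1, 140.9 and 144.9 in Lhx8 null ovaries, against 494.1 and 429.1 in wild type ovaries, and fell by 1.68 on the log2 scale (limma adjusted p = 0.00134). Gata4, a zinc finger factor of gonadal somatic cells, fell at both probe sets, by 1.31 and 1.48, and the LIM homeobox gene Lhx9 fell by 1.13. Map3k4, a kinase gene that acts ahead of Sry in the XY gonad, fell by 0.72 (limma adjusted p = 0.00367), a call lost without a variance trend (limma adjusted p = 0.053). Nr5a1, which encodes steroidogenic factor 1, had a difference of -1.33, called except without wild type replicate 2 (limma adjusted p = 0.0562) among the fits with 1 array left out. Wt1, a zinc finger gene of supporting cells and mesothelium, had -0.13 (SE 0.10) and did not pass, and Sry had signals of 15, 16.8 and 93.5 in null ovaries, against 112.8 and 23.3 in wild type ovaries, at its brighter probe set. The rise belongs to Dmrt1, which stands in this list too.

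Of 16 genes of ovarian determination and granulosa cells, 8 fell, 4 rose and 4 did not pass, with a median of -0.28. Foxl2, which holds granulosa cell identity, had signals of 2304.9, 1804.2 and 1714.2 in Lhx8 null ovaries, against 5688.8 and 4462.1 in wild type ovaries. It fell by 1.35 on the log2 scale (SE 0.17, limma adjusted p = 0.00128). Vnn1 and Aard, picked out beside it, had -1.52 and -1.24, and the differences between these genes were not tested. The genes of this list that fell ranged from -0.59 for Kitl to -2.18 for Runx1 at their brightest probe sets. The activin antagonist gene Fst, the homeobox gene Irx3 and the cell cycle inhibitor gene Cdkn1b fell by 1.17, 1.17 and 1.08. Wnt4 had 0.32 and Rspo1, picked out as its partner, 0.03, and neither passed. Esr1, the estrogen receptor alpha gene, rose by 1.64. The other genes that rose were Nr2f2, Lgr5 and Bmp2, by 1.10, 0.93 and 1.08. Which cells of the ovary gave the signals of the 4 genes that rose was not tested. Esr2, the other estrogen receptor gene of this list, fell by 1.98 (limma adjusted p = 0.0207). It was read by a dim probe set, and its call was lost without Lhx8 null replicate 3 (limma adjusted p = 0.0540). The count of 4 higher genes was 1 without wild type replicate 2 and 2 without wild type replicate 3. In bulk ovary RNA, fewer cells of a type and less RNA per cell cannot be told apart, for these genes and for the Sertoli program genes that fell.

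Around FGF9, 4 of 12 measured receptors, relatives and response genes rose and 0 fell, with a median of 0.52, and the same 4 had an unadjusted p under 0.05. Fgfr2, whose product is the receptor through which FGF9 acts in the XY gonad, had signals of 2022.2, 1919.7 and 1659.4 in Lhx8 null ovaries, against 1118.6 and 894.3 in wild type ovaries, at its brightest probe set, 1433489_s_at. There it rose by 0.93 (SE 0.15, limma adjusted p = 0.00323). A second probe set of Fgfr2, 1420847_a_at, had 617.7, 765.1 and 727.5 in null ovaries, against 960.8 and 959.4 in wild type ovaries, and a difference of -0.42 that did not pass (limma adjusted p = 0.0901). The 2 probe sets thus pointed in opposite directions, and which transcripts of Fgfr2 each of them reads was not analysed here. Fgfr1 and the FGF-induced antagonist gene Spry1 rose by 1.19 and 1.20. Fgf16, a close relative of Fgf9, rose by 1.79, from a probe set among the dimmest 40%, a call lost without wild type replicate 2 (limma adjusted p = 0.0811) or 3 (limma adjusted p = 0.0736). Dusp6, Spry2 and Etv5, picked out as response genes of this pathway that did not pass, had 0.02, -0.01 and 0.26.

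Around Ptgds, none of the 4 measured genes of prostaglandin D2 synthesis and reception passed in limma, and 1 had an unadjusted p under 0.05. Ptgs2, an inducible cyclooxygenase gene, had 1.50 (limma adjusted p = 0.0567) and was called without Lhx8 null replicate 1, with the deposited scaling and with the replicate number as a block (limma adjusted p = 0.0289, 0.0292 and 0.0253). Hpgds, the other prostaglandin D synthase gene, and the receptor genes Ptgdr and Ptgdr2 had 0.28, -0.97 and -0.17.

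Around ERBB4, 2 of 10 receptors and ligands rose and 3 fell, with a median of 0.02, where 14.0% of all genes were higher and 13.5% lower. The ligand gene Nrg4 had signals of 64.1, 47.1 and 48.5 in Lhx8 null ovaries, against 298 and 799.5 in wild type ovaries, a pair that lay wide apart. It fell by 2.99 on the log2 scale (SE 0.41, limma adjusted p = 0.00169), and by 2.83 at its second probe set. The receptor gene Erbb3 had 526.4, 559.5 and 543.5 in null ovaries, against 214.6 and 170.9 in wild type ovaries, and rose by 1.32 (limma adjusted p = 0.00174). Nrg1, a ligand gene read by a probe set among the dimmest 40%, fell by 1.86. Erbb2, the common partner of the other receptors, rose by 0.66 (limma adjusted p = 0.0334), a call lost without null replicate 1, 2 or 3 or wild type replicate 3, under median centring and without a variance trend.

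Markers of other cell types moved in the same comparison. In Lhx8 null ovaries 7 of 7 surface mesothelium markers rose, with summed signals of 26561 to 28407 in null and 7815 to 8509 in wild type ovaries. Of 7 oviduct and mesonephric epithelium markers 6 rose (14324 to 16921 in null, 4412 to 4918 in wild type ovaries), and of 8 stroma and smooth muscle markers 7 rose (85377 to 96112 in null, 34223 to 38731 in wild type ovaries). Of 5 macrophage markers 4 rose (7519 to 8833 in null, 1959 to 1988 in wild type ovaries), and of 6 endothelial markers 4 rose (6521 to 7344 in null, 2341 to 2849 in wild type ovaries). All 8 germ cell markers fell, to sums of 6287 to 9004 in null ovaries, against 49038 to 49810 in wild type ovaries. No marker was listed at 0. These shifts ran alongside the rises of Fgf9 and Ptgds and the falls of Vnn1, Aard and Cst9, and their part in them was not tested. Of 4 Leydig and theca cell markers 1 fell, Hsd3b1 by 1.16, and without null replicate 1 the count was 2. Of 4 Schwann cell markers Erbb3 alone rose, and none of 4 cartilage markers passed in limma, with 0 at an unadjusted p under 0.05 and sums of 121 to 178 in null and 155 to 173 in wild type ovaries. The last 2 lists stand here because Sox9 and its relatives are also genes of cartilage and of glia.

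**Figure D4:**
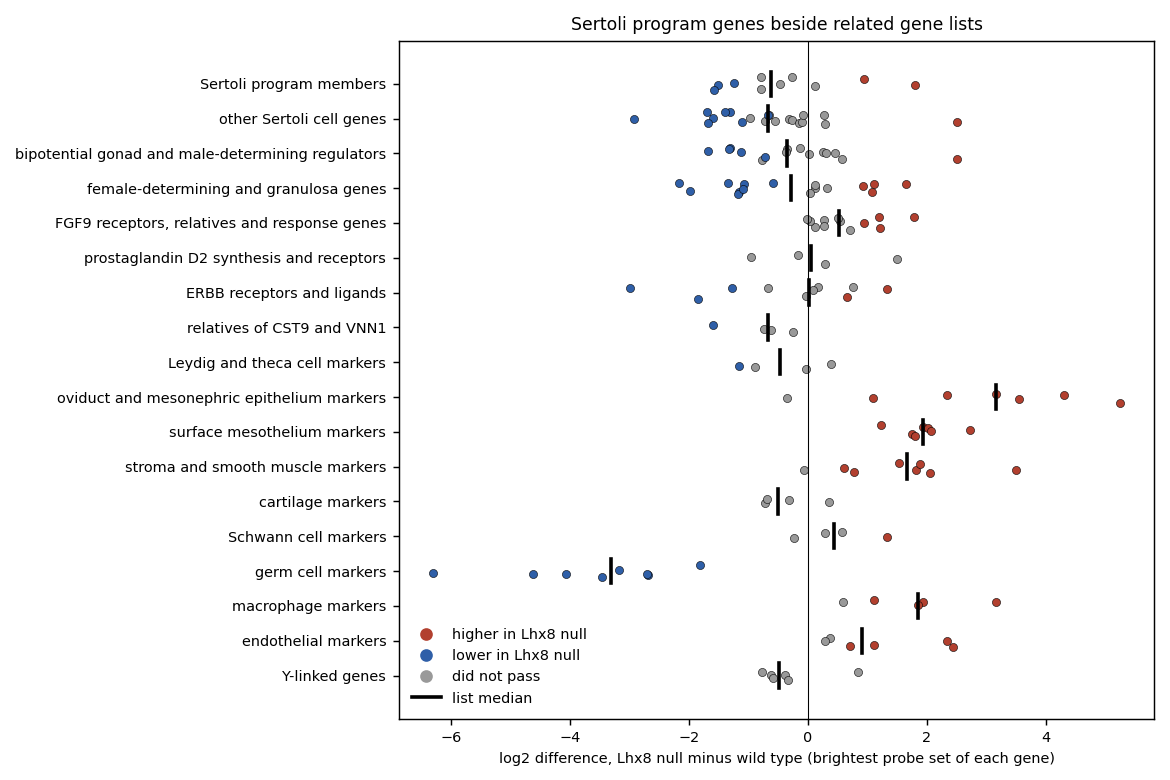
Log2 difference, Lhx8 null minus wild type, of each gene at its brightest probe set, by gene list; red points rose, blue fell, grey did not pass, and black bars are list medians. The Sertoli program genes lie on both sides of 0 with a median of -0.63, while 7 of 7 mesothelium markers lie to the right and 8 of 8 germ cell markers to the left.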

How the data were processed

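Per the file headers and values, the authors deposited 1 linear array intensity for each probe set, scaled to a 2% trimmed mean of 500 on every array. The submitters' processing notes name GCOS for wild type arrays, and the software behind the null arrays is not given in the sources used here. Groups came from the sample labels, and wild type replicate 1 was not analysed here. Of 45101 probe sets 64 controls were left out; 34945 of the rest had 1 gene symbol, 932 several and 9160 none. Array medians differed by more than 0.1, so log2(signal + 16) values were quantile normalised. All 45037 probe sets were fitted without a brightness filter in limma 3.58.1 under R 4.3.3 (lmFit, eBayes with a trend, Benjamini-Hochberg adjustment), and the fit was tested on simulated data. Listed genes were read at their brightest probe set, and the dimmest 40% of probe sets had a mean level below 6.24, a signal of about 59.8. Of 156 names in 17 lists beside the members, 134 were measured.

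The 10 genes and the lists were chosen with earlier results of these data known. Named were all members, Lhx8, up to 4 genes a list with the smallest p, and Foxl2, Wnt4, Amh, Dhh, Sry, Nr5a1, Wt1, Gata4, Fgfr2 and Fst; other named genes were chosen after their values were seen. Alternatives were other scalings, constants of 1 or 64, brightness filters, probe set choices, no variance trend, a threshold of 0.01, the replicate number as a block, and each array left out. The number of arrays limits the precision. The p-values set each difference against the spread between pools, with the variance of each probe set drawn by limma towards a trend over all probe sets. Figures used matplotlib 3.10.9 and Python 3.11.15.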

Additional observations from a re-analysis of the deposited data

How the results depend on the processing

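Of 246 values of member probe sets under 15 alternatives, 221 kept their direction and their side of the threshold, 14 lost and 8 gained a call, and 3 changed sign without a call in either fit. With 1 array left out Clu 1418626_a_at lay between -0.565 and 0.0415, and Sox9 1451538_at between -0.00987 and 0.283; the Sox9 value was -0.51 with probe sets averaged. Member probe sets called higher numbered 2 to 4, and lower 3 to 5, with 1 array left out, and 3 were lower without a variance trend. By gene, 1 member was higher, in place of 2, with median centring, without a trend or at the threshold of 0.01. With 1 array left out, 1 or 2 member genes were higher and 1 to 3 lower, the low ends without wild type replicate 3 and, for higher genes, also replicate 2. Over all probe sets 4816 were higher and 4642 lower; without a trend 2953 were higher, at 0.01 the counts were 2378 and 2372, and with 1 array left out 2134 to 5098 were higher and 1801 to 4929 lower. A fit with 1 wild type array left assumes that it varies like the others.

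The replicate number as a block gave 5147 higher and 4683 lower probe sets, with 4 member probe sets higher and 6 lower, since Clu 1454849_x_at passed at -0.47 (adjusted p = 0.0286 in limma). Arrays with the same number did not deviate together (correlations of 0.01 and 0.01 for replicates 2 and 3), so the numbers were not taken as pairs. With 3 null and 2 wild type arrays and no detection calls, small changes of dim genes such as Sox9, Sox8, Erbb4 and Mro can be missed. The causes of lost calls were not tested.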
